A study of Mus musculus with 8 samples.

Results

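Cd3e, Cd3d, Cd3g and Cd247 encode the CD3 chains that carry signals from the T cell receptor, Ptcra encodes the pre-T cell receptor alpha chain, and Rag1, Rag2 and Dntt encode enzymes that assemble receptor genes. Bcl11b binding at these 8 genes was read from 201 bp intervals whose nearest protein-coding gene body (RefSeq, GRCm38.p6, the coordinates of mm10) was a member within 100 kb of the midpoint. The rule gave 69 of the 63098 intervals in the authors' normalized table: 28 at Cd247, 13 at Cd3e, 11 at Dntt, 6 at Rag1, 3 each at Cd3d, Cd3g and Rag2, and 2 at Ptcra. The count table of 93708 intervals held no further interval at these genes, so the filter on low counts, which kept 67.3% of all intervals, removed none of them. The farthest, at Dntt, lay 15.8 kb from its gene body, and 0 intervals of the count table had a member as nearest gene beyond 100 kb. The 3 Rag2 intervals also lie inside Iftap, a gene that overlaps the 5′ end of Rag2, and were counted as Rag2 intervals by this tie; without them 66 remain.

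The study measured Bcl11b by ChIP-seq (sequencing of DNA recovered by chromatin immunoprecipitation) in thymocytes of Bcl11b+/N440K mice, which carry 1 mutant and 1 wild type allele, and of Bcl11b+/+ mice. There were 3 libraries of each genotype. Each library totalled between 1787899 and 2661343 counts over all intervals. The labels give no strain, age or sex, and do not say whether the replicates came from separate animals or whether the antibody binds both forms of the protein alike. The p-values below therefore rest on differences among these libraries, which may be technical. The 2 Bcl11b+/+ input libraries were not analysed here. ChIP counts are not expression, so the thymocyte label was not checked against marker RNA. In such bulk samples fewer cells with a bound site and less binding per cell cannot be told apart.

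Bcl11b is a zinc finger transcription factor needed for commitment to the T cell lineage. During thymocyte development the Rag1 and Rag2 proteins form the recombinase that cuts receptor gene segments, and Dntt (terminal deoxynucleotidyl transferase) adds untemplated nucleotides at the joints. A rearranged beta chain pairs with the Ptcra product and the CD3 chains to form the pre-T cell receptor; CD3 chains carry ITAM motifs, whose tyrosines are phosphorylated on signalling. The Cd3g, Cd3d and Cd3e genes are neighbours, 1.3 kb and 11.7 kb apart, and Rag2 and Rag1 face each other across 5.7 kb.

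In 6 of the genes an interval covered bases just before the transcription start. The covered part is shown for the 4 with the longest cover (Cd3e had 71 bases and Ptcra 45), because the promoter signal described below was counted there (RefSeq, GRCm38.p6, 5′ to 3′ on the gene's strand, ending 1 base before the start). Capitals mark 6-base words searched on both strands. The RUNX type word searched was TGTGGT. The ETS type word searched was AGGAAG. The E-box type words were the palindrome CAGCTG, together with a second word, CAGGTG, that also marks such boxes. The GATA type word searched was AGATAA. No marked words overlap.
Rag1 (chr2:101649533-101649706, minus strand): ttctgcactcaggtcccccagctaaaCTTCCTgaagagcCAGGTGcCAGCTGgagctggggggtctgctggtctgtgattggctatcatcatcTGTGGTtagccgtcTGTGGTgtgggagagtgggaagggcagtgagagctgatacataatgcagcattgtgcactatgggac
Cd3g (chr9:44980432-44980606, minus strand): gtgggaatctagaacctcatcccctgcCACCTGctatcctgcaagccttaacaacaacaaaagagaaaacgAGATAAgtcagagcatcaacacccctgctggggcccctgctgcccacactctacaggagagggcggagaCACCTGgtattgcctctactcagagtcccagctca
Cd3d (chr9:44981607-44981785, plus strand): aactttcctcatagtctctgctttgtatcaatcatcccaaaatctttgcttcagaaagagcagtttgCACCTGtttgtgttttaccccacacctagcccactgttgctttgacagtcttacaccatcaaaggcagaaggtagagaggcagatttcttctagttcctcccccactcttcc
Cd247 (chr1:165788564-165788680, plus strand): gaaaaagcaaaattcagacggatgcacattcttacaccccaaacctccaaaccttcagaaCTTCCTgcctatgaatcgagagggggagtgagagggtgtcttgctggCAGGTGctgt

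Over the 250 bases before each start, an E-box word was found in 5 of the 8 members and in 27.7% of 32851 RefSeq promoters. An ETS word was found in 4 members and 29.5% of promoters, a GATA word in 2 and 9.99%. The RUNX word was found in Rag1 alone among the members, where 2 copies stand 8 bases apart, and in 14.0% of promoters. TGACCA or its reverse complement, the word described for the human paralog BCL11A, was in 0 of the 8 and in 11.4% of promoters. These are matches of letters, not measured sites.

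No interval at the CD3 and recombination genes passed the test for a change between the genotypes. edgeR's quasi-likelihood test called 0 of the 69 intervals at a Benjamini-Hochberg adjusted p under 0.05, against 720 of all 63098 tested intervals (1.14%; 0.681% lower and 0.460% higher in Bcl11b+/N440K). DESeq2 and limma voom also called 0, against 0.0951% and 0.504% of all intervals. At an unadjusted edgeR p under 0.05 there were 2 of the 69 (2.90%), against 12.7% of all intervals. The log2 fold change was negative at 34 and positive at 35 of them (49.5% of all intervals were negative), with a median of 0.002 against 0.004 over all intervals. At 12 intervals the 2 sets of libraries stood apart, 7 lower and 5 higher in Bcl11b+/N440K. That is 17.4% of the 69, against 17.3% of all intervals (8.95% apart and lower). The standard error of the log2 fold change had a median of 0.221 at the 69 intervals, so small changes at single intervals were not detectable at this depth. Counts in these intervals ranged from 3 to 211 per library.

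**Figure D1:**
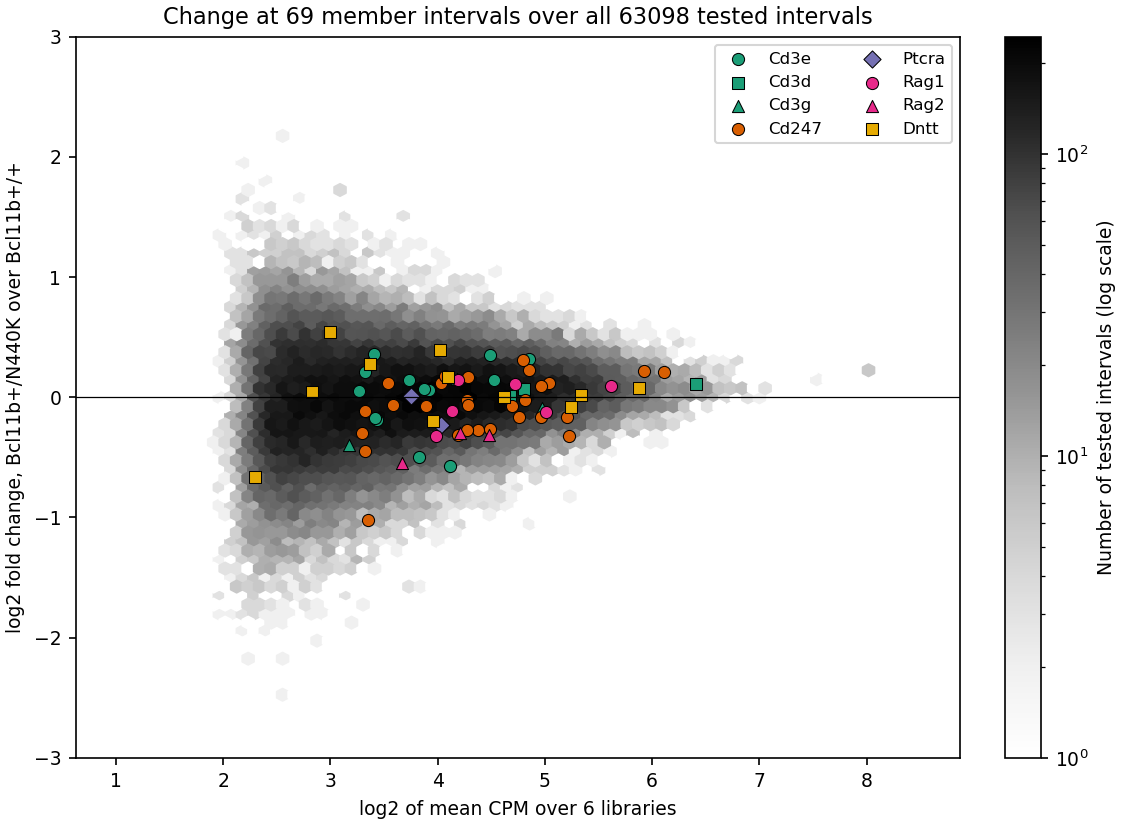
log2 fold change (Bcl11b+/N440K over Bcl11b+/+) against the log2 of the mean CPM of 6 libraries for the 69 intervals. Genes are told apart by colour and marker shape together, as Cd3e, Cd3d and Cd3g share a colour and Rag1 and Rag2 share another. All 63098 tested intervals are in grey (shade, number of intervals on a log scale), and the y axis is cut at 3 in both directions. The strong intervals of Cd3d, Cd247 and Dntt sit near 0, and 1 Cd247 interval lies at -1.02.

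Counts summed over all intervals of a gene gave a tighter comparison. In edgeR's test over 13602 genes, 0 of the 8 members were called, against 457 of all genes (3.36%; 2.26% lower and 1.10% higher in Bcl11b+/N440K). DESeq2 and limma voom also called 0 of the 8, against 1.18% and 3.26% of all genes. Of the 8, 1 (Rag2) had an unadjusted edgeR p under 0.05, against 15.7% of all genes. The 95% interval of the ratio of Bcl11b+/N440K to Bcl11b+/+ signal ran from 89.4% to 107% for Cd247, from 90.8% to 116% for Cd3e, from 91.1% to 120% for Cd3d and from 91.8% to 115% for Dntt. It ran from 86.2% to 112% for Rag1, from 78.9% to 114% for Cd3g and, with the fewest counts (47 to 75 per library), from 71.1% to 116% for Ptcra. For these 7 genes the libraries of the genotypes overlapped. Such intervals do not show that binding was equal; they bound the difference.

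**Figure D2:**
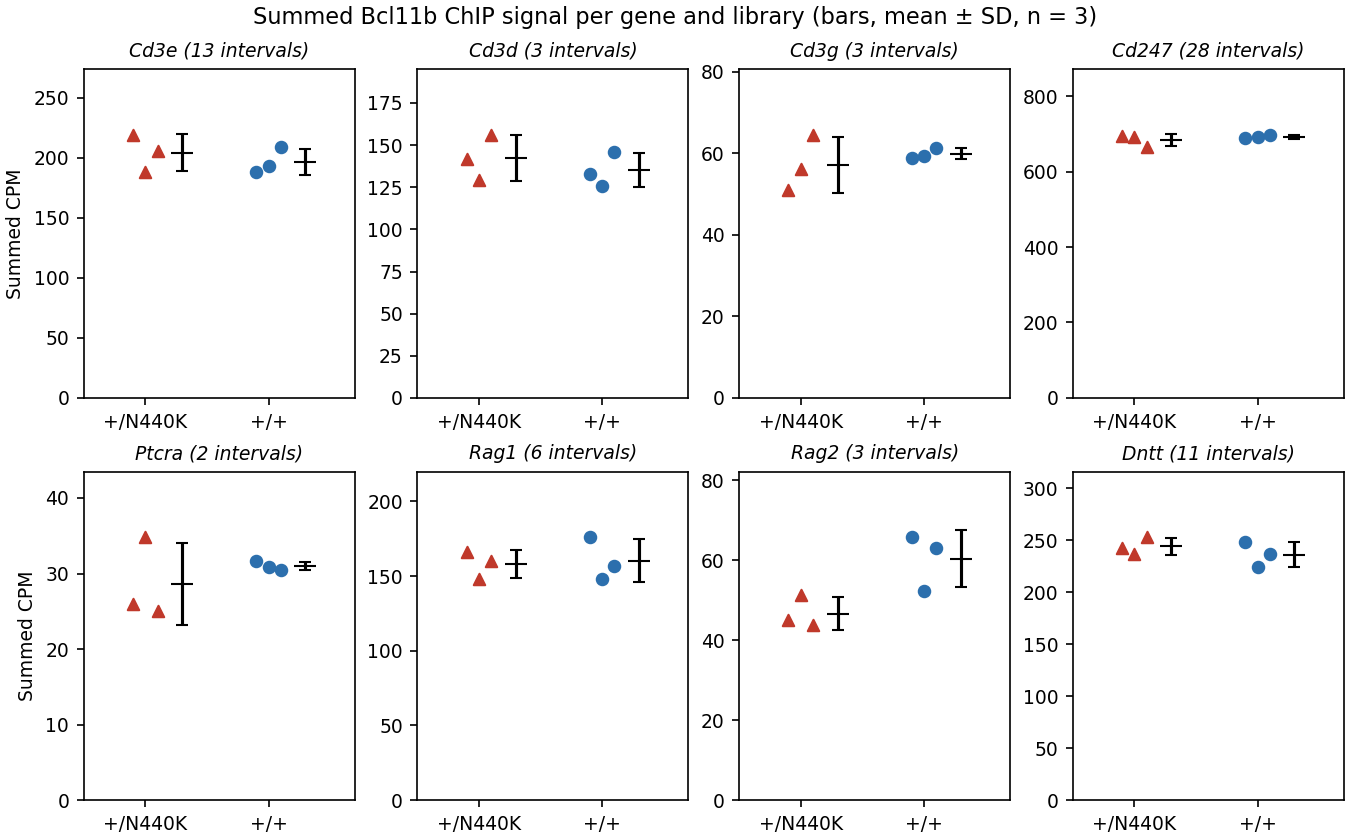
Summed CPM of all intervals of each gene in each library, with Bcl11b+/N440K libraries (triangles) left of Bcl11b+/+ libraries (circles); black bars give the mean ± SD of 3 libraries and each axis starts at 0. The groups overlap in each panel except Rag2, where the 3 Bcl11b+/N440K libraries lie between 43.7 and 51.3 and the Bcl11b+/+ libraries between 52.3 and 65.7.

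The 3 linked CD3 genes carried their strongest signal at the far end of Cd3d, which encodes CD3 delta. A T cell enhancer is known just beyond the 3′ end of this gene. The interval at chr9:44986524-44986724 ends 0.3 kb before the end of the gene body, 4.8 kb downstream of the start, and was stronger than 99.8% of all tested intervals. It had 88.0, 81.1 and 95.8 CPM (counts scaled to library size) in Bcl11b+/N440K libraries, against 81.2, 74.5 and 90.6 CPM in Bcl11b+/+ libraries. The groups overlap, and the log2 fold change was 0.11 ± 0.11 (SE; edgeR adjusted p = 0.756). It held 62.0 ± 0.619% of all Cd3d counts in Bcl11b+/N440K and 60.8 ± 1.5% in Bcl11b+/+ libraries (SD, n = 3).

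The shared promoter region of Cd3g, which encodes CD3 gamma, and Cd3d was bound on both sides. Its Cd3g interval (chr9:44980406-44980606), which holds the E-box and GATA words shown above, had 26.6, 31.1 and 33.3 CPM in Bcl11b+/N440K, against 34.1, 30.9 and 32.6 CPM in Bcl11b+/+. The Cd3d start interval (chr9:44981607-44981807) had 27.1, 25.6 and 32.3 CPM in Bcl11b+/N440K, against 31.6, 24.3 and 26.6 CPM in Bcl11b+/+. Both overlap between the genotypes, with edgeR adjusted p = 0.881 and 0.924. The weakest of the 3 Cd3g intervals, at 44969582 near the 3′ end of the gene, had 7.75, 7.32 and 8.33 CPM in Bcl11b+/N440K, against 8.67, 11.1 and 10.7 CPM in Bcl11b+/+. There the groups do not overlap, yet the change was within error (log2 fold change -0.40 ± 0.31, SE; edgeR adjusted p = 0.647).

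Cd3e, which encodes CD3 epsilon, had 13 intervals, none among the strongest 10% of all. The signal was spread over the 5′ flank, the start and the 3′ side. Its strongest interval lay 6.4 kb upstream (chr9:45015924-45016124), with 36.5, 28.1 and 31.8 CPM in Bcl11b+/N440K, against 24.2, 26.3 and 26.6 CPM in Bcl11b+/+. All 3 Bcl11b+/N440K libraries were above the Bcl11b+/+ libraries, and the interval did not pass (log2 fold change 0.32 ± 0.18, SE; edgeR adjusted p = 0.471). The interval at the start itself (chr9:45009482-45009682) showed the same order, with 29.9, 23.2 and 22.9 CPM in Bcl11b+/N440K, against 16.1, 19.8 and 22.7 CPM in Bcl11b+/+ (adjusted p = 0.486 by edgeR). Less than 1 kb further upstream the order was turned. The interval at chr9:45010363-45010563 had 11.6, 18.3 and 12.0 CPM in Bcl11b+/N440K, against 21.7, 18.1 and 22.3 CPM in Bcl11b+/+, and Bcl11b+/N440K replicate 2 overlapped the Bcl11b+/+ range. Its unadjusted p was 0.0164 and its adjusted p 0.252 in the edgeR test. The genotypes stood apart at 4 of the 13 Cd3e intervals. Besides the higher ones above, these were lower in Bcl11b+/N440K at 44996733 (log2 fold change -0.50, edgeR adjusted p = 0.395) and 45014957 (-0.17, edgeR adjusted p = 0.865). Of the 13, 4 were lower and 9 higher in Bcl11b+/N440K, whether or not the genotypes overlapped. Over the whole gene the opposite signs left a log2 fold change of 0.04 ± 0.09 (SE).

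The share of Cd3e counts in its strongest interval was 15.7 ± 0.919% in Bcl11b+/N440K and 13.1 ± 0.486% in Bcl11b+/+ libraries (SD, n = 3). For Cd247 the share was 10.8 ± 0.385% in Bcl11b+/N440K and 9.29 ± 0.680% in Bcl11b+/+ libraries (SD, n = 3). The libraries did not overlap in either case. The exact permutation test, two-sided, gave p = 0.1, the smallest that 3 against 3 allow. Adjusted over the 8 genes, the permutation p was 0.4. These shares use the counts of the same strongest intervals whose own tests are given for each gene, so they are not separate evidence. How often such shares stand apart over all genes was not computed. For the other 6 genes the shares overlapped between the genotypes, with exact permutation p from 0.2 to 1.00.

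Cd247, which encodes the zeta chain with the most ITAMs of the complex, carried the most summed signal of the 8 genes. Its 28 intervals all lie inside the gene body of 91.2 kb, and its summed signal ranked 34 of 13602 genes. Of the 69 intervals, 14 were in the strongest 10% of all intervals, 7 of them at Cd247. The pair of strongest ones lies 56.5 kb and 60.4 kb downstream of the start. At chr1:165845089-165845289 there were 72.5, 75.0 and 74.4 CPM in Bcl11b+/N440K, against 67.5, 58.9 and 66.5 CPM in Bcl11b+/+. At chr1:165848990-165849190 there were 63.7, 64.1 and 69.2 CPM in Bcl11b+/N440K, against 51.4, 61.8 and 55.4 CPM in Bcl11b+/+. In both, each Bcl11b+/N440K library was above each Bcl11b+/+ library, by 1.16-fold in the fit, and neither passed (edgeR adjusted p = 0.490 and 0.499). Another strong interval, at chr1:165803147-165803347, went the other way, with 27.7, 36.6 and 34.9 CPM in Bcl11b+/N440K, against 45.2, 38.3 and 41.2 CPM in Bcl11b+/+. The groups were apart there too, and it did not pass (log2 fold change -0.32, edgeR adjusted p = 0.396). Of the 28 Cd247 intervals, 18 were lower and 10 higher in Bcl11b+/N440K.

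A weak Cd247 interval between the strongest pair and the start had the smallest p of the 69. At chr1:165836902-165837102, 48.3 kb downstream, there were 4.43, 9.76 and 5.73 CPM in Bcl11b+/N440K, against 18.6, 9.88 and 12.9 CPM in Bcl11b+/+. Replicates 2 of both genotypes nearly met, while the other libraries were well apart. The log2 fold change was -1.02 ± 0.32 (SE; unadjusted p = 0.00215, edgeR adjusted p = 0.0999), the only one of the 69 beyond 2-fold (1.45%, against 2.58% of all intervals). Without Bcl11b+/N440K replicate 2 it was -1.37 and edgeR called it (adjusted p = 0.0476); over all settings the adjusted p ran from 0.0476 to 0.788. The start interval of Cd247 (chr1:165788564-165788764), with the ETS and E-box words shown above, had 32.7, 20.7 and 23.4 CPM in Bcl11b+/N440K, against 26.0, 29.2 and 30.5 CPM in Bcl11b+/+, which overlap. A further 3 intervals stand about 8 kb before this start, at the outer end of the RefSeq gene body, with log2 fold changes from -0.02 to 0.12.

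The genes nearest to Cd247 in summed signal over the 6 libraries, by root mean square difference of log2 CPM among 13601 genes, were Ahi1 (0.069), Ldlrad4 (0.072) and Mtss1 (0.082). Each also carried many intervals, 33, 40 and 41.

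**Figure D3:**
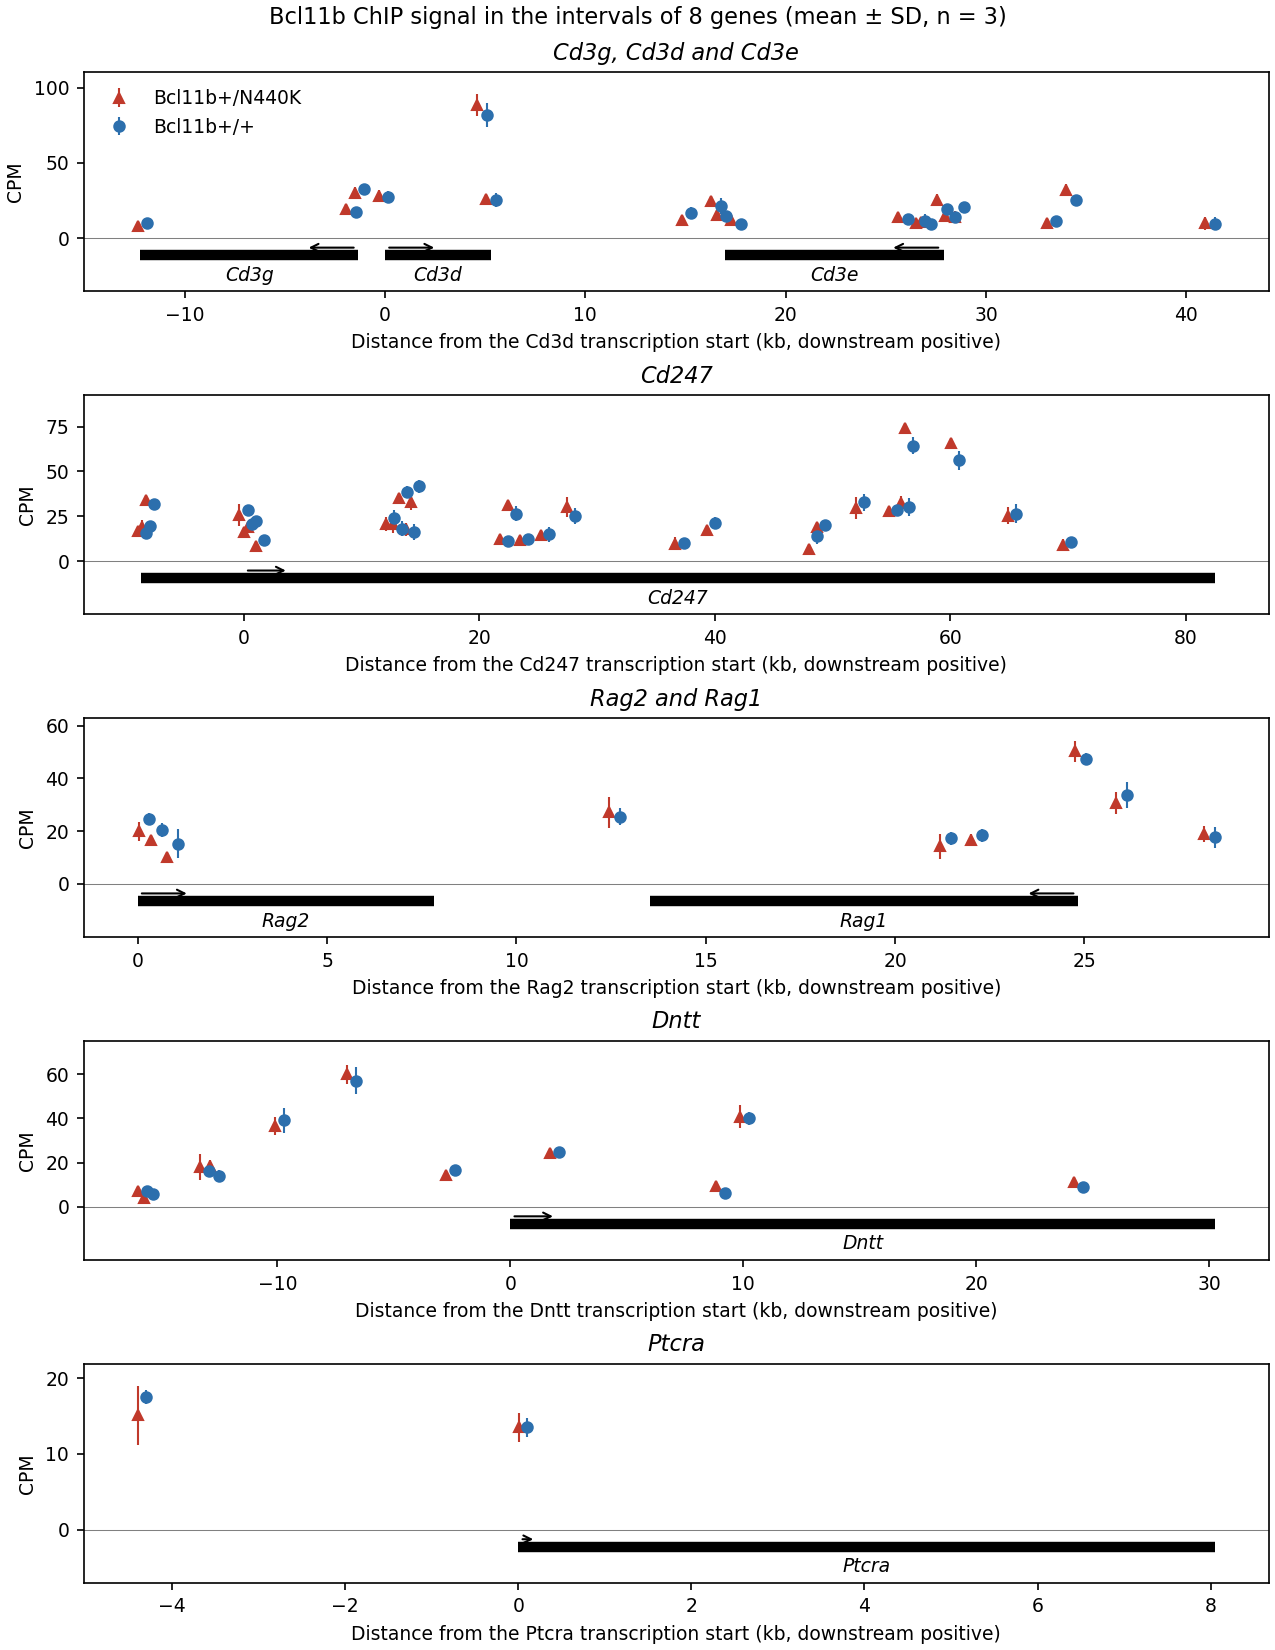
CPM of each interval (mean ± SD of 3 libraries; triangles Bcl11b+/N440K, circles Bcl11b+/+, set slightly apart) against distance from a transcription start in kb. Black bars are gene bodies and arrows mark starts and direction; the highest points are the interval near the end of Cd3d, the Cd247 pair 56.5 and 60.4 kb downstream, the Rag1 start and the interval 6.8 kb upstream of Dntt.

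Ptcra, whose product stands in for the alpha chain before that gene is rearranged, had the least signal. An enhancer upstream of this gene is known. The interval 4.4 kb upstream (chr17:46767963-46768163) had 12.2, 19.5 and 13.5 CPM in Bcl11b+/N440K, against 16.7, 18.5 and 17.2 CPM in Bcl11b+/+. Bcl11b+/N440K replicate 2 was above all other libraries and the other 2 below, so the groups overlap (edgeR adjusted p = 0.747). The start interval (chr17:46763557-46763757) averaged 13.5 ± 1.92 CPM in Bcl11b+/N440K and 13.5 ± 1.27 CPM in Bcl11b+/+ (SD, n = 3).

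Dntt had no interval within 0.5 kb of its start, unlike the other 7 genes. Its signal peaked in the 5′ flank, 6.8 kb upstream (chr19:41022342-41022542), with 59.2, 64.7 and 56.2 CPM in Bcl11b+/N440K, against 62.6, 50.6 and 57.9 CPM in Bcl11b+/+. The next strongest were inside the gene 10.1 kb downstream and in the flank 9.9 kb upstream. These averaged 40.8 ± 5.30 CPM in Bcl11b+/N440K and 40.1 ± 2.90 CPM in Bcl11b+/+, and 36.5 ± 3.90 CPM in Bcl11b+/N440K and 39.1 ± 5.57 CPM in Bcl11b+/+ (SD, n = 3). All 3 overlap between the genotypes. The Dntt interval with the smallest p, 12.7 kb upstream, had 21.6, 17.1 and 16.1 CPM in Bcl11b+/N440K, against 16.7, 11.5 and 14.2 CPM in Bcl11b+/+ (edgeR adjusted p = 0.506).

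At Rag1 the promoter was the main site. The interval at chr2:101649506-101649706, which holds the paired RUNX words, the E-box words and the ETS word shown above, was stronger than 97.6% of all intervals. It had 54.8, 47.6 and 48.4 CPM in Bcl11b+/N440K, against 50.2, 46.5 and 45.9 CPM in Bcl11b+/+, which overlap (log2 fold change 0.09 ± 0.14, SE; edgeR adjusted p = 0.858). The weaker interval 3.5 kb inside the gene, with the smallest p at Rag1, had 9.97, 19.5 and 13.0 CPM in Bcl11b+/N440K, against 15.5, 16.5 and 20.2 CPM in Bcl11b+/+ (edgeR adjusted p = 0.636). The other 4 Rag1 intervals had log2 fold changes from -0.12 to 0.14.

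Rag2 was the member gene with the largest difference, and it did not pass. Its summed signal was 44.9, 51.3 and 43.7 CPM in Bcl11b+/N440K, against 65.7, 52.3 and 63.1 CPM in Bcl11b+/+. The groups do not overlap, which held for 20.1% of all genes, though Bcl11b+/N440K replicate 2 and Bcl11b+/+ replicate 2 lie close. The log2 fold change was -0.38 ± 0.14 (SE; unadjusted p = 0.00891, edgeR adjusted p = 0.133), which puts Bcl11b+/N440K signal at 63.3% to 93.1% of Bcl11b+/+ signal (95% interval). The adjusted p ran from 0.0693 to 0.503 over the settings tried. All 3 intervals were negative. Just after the start (chr2:101624778-101624978) there were 19.4, 23.8 and 16.7 CPM in Bcl11b+/N440K, against 26.6, 22.6 and 24.9 CPM in Bcl11b+/+. At 0.5 kb there were 16.6, 17.1 and 16.1 CPM in Bcl11b+/N440K, against 18.0, 19.8 and 23.2 CPM in Bcl11b+/+. At 0.9 kb there were 8.86, 10.4 and 10.9 CPM in Bcl11b+/N440K, against 21.1, 9.88 and 15.0 CPM in Bcl11b+/+. Of these 3, only the interval at 0.5 kb kept the genotypes apart in every library.

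Set against Rag1 in the same library, the log2 ratio of Rag2 to Rag1 counts was -1.88, -1.53 and -1.87 in Bcl11b+/N440K, against -1.42, -1.50 and -1.32 in Bcl11b+/+. The difference was -0.35 (two-sided p = 0.1 by exact permutation, the lowest value that 3 against 3 libraries allow). This comparison was chosen after the values had been seen.

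The DNA upstream of Rag2 lies in or near Iftap and was therefore counted to that gene, but it is known to hold elements that control both Rag genes in thymocytes, among them a distant antisilencer. Around the Rag pair, 24 further intervals lay within 100 kb, 21 nearest to Iftap and 3 to Traf6. The strongest, 73.2 kb upstream of the Rag2 start (chr2:101551415-101551615), had 143, 132 and 137 CPM in Bcl11b+/N440K, against 141, 125 and 124 CPM in Bcl11b+/+. That is above every interval assigned to the 8 genes, and the genotypes overlap (log2 fold change 0.09 ± 0.10, SE; edgeR adjusted p = 0.766). A neighbour 72.2 kb upstream had 62.7 ± 3.96 CPM in Bcl11b+/N440K and 63.7 ± 2.57 CPM in Bcl11b+/+ (SD, n = 3). Whether either is a known control element was not tested.

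Nearer to Rag2, edgeR called 2 of these 24 intervals, in opposite directions, against 1.14% called over all intervals. An unadjusted edgeR p under 0.05 was found for 5 of the 24, against 12.7% of all intervals. At 16.0 kb upstream (chr2:101608603-101608803) signal fell to 20.5, 12.2 and 15.6 CPM in Bcl11b+/N440K, against 29.1, 35.0 and 23.6 CPM in Bcl11b+/+. The groups do not overlap, and the change was 1.81-fold (log2 fold change -0.85 ± 0.21, SE; edgeR adjusted p = 0.0253). At 24.0 kb upstream (chr2:101600567-101600767) signal rose to 33.2, 21.4 and 30.7 CPM in Bcl11b+/N440K, against 14.9, 13.2 and 20.6 CPM in Bcl11b+/+, a 1.75-fold change (0.81 ± 0.21 on the log2 scale; edgeR adjusted p = 0.0364). DESeq2 called neither, with adjusted p = 0.445 and 0.522. Limma voom called the lower interval (adjusted p = 0.0482) and not the higher one (adjusted p = 0.0591). Over the settings the adjusted p ran from 0.0140 to 0.445 for the lower and from 0.0135 to 0.522 for the higher interval. Both were singled out after their values had been seen.

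The next intervals towards Rag2, at 8.6, 3.5 and 0.4 kb upstream, had log2 fold changes of -0.30, -0.80 and -0.64 (edgeR adjusted p = 0.718, 0.254 and 0.311), and that at 23.5 kb upstream had -0.03. The flanks of the other 4 loci held 73 further intervals, of which 0 were called by edgeR. An unadjusted edgeR p under 0.05 was found for 6 of the 73, against 12.7% of all intervals.

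**Figure D4:**
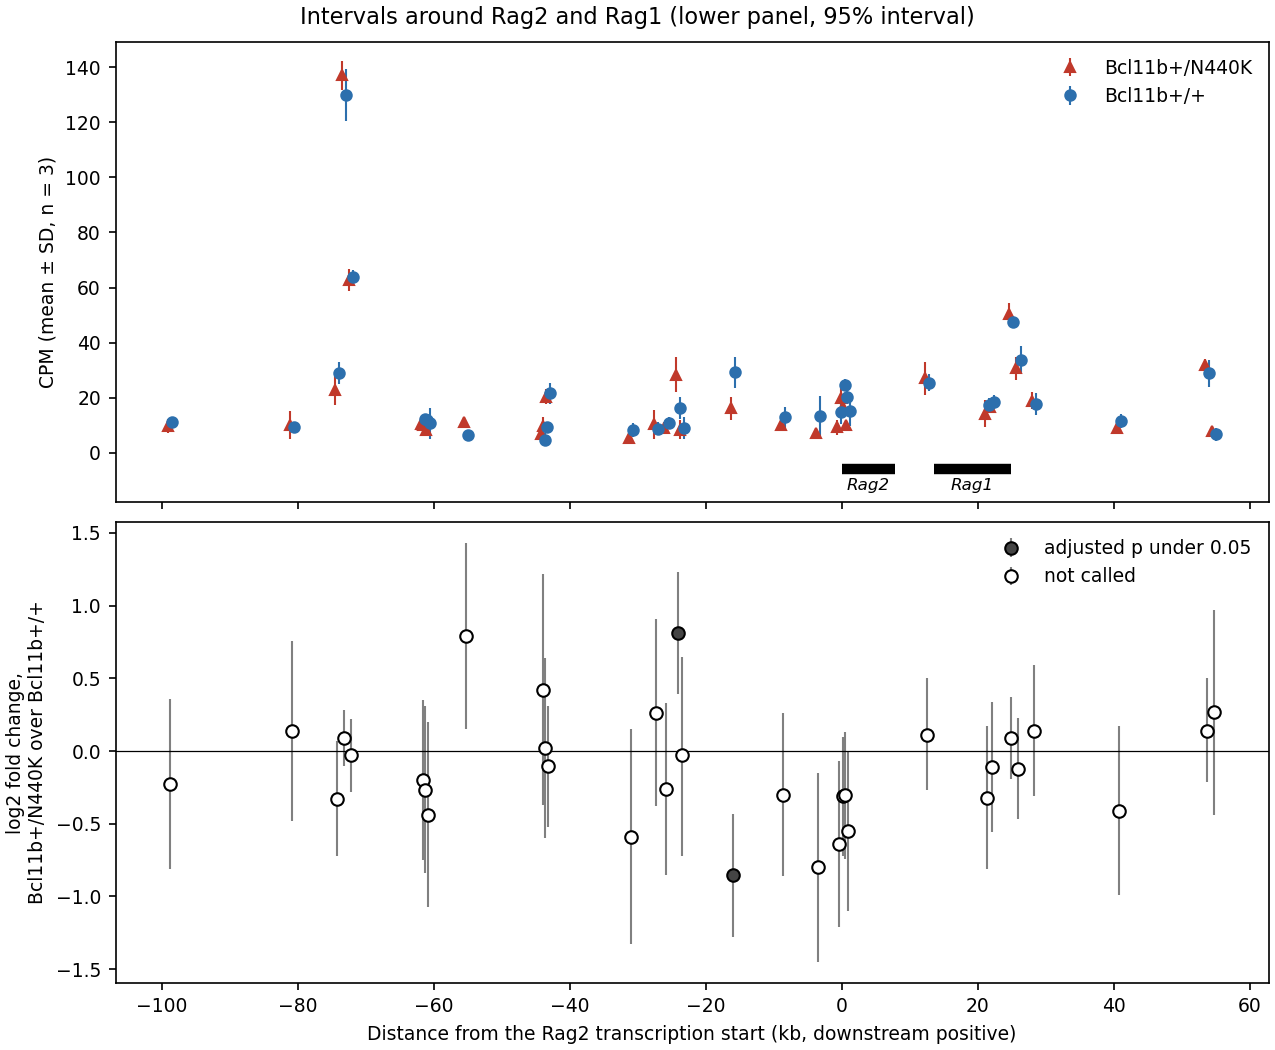
Intervals within 100 kb of Rag2 and Rag1 by distance from the Rag2 start in kb. Upper panel, CPM (mean ± SD of 3 libraries; triangles Bcl11b+/N440K, circles Bcl11b+/+, set slightly apart; black bars, gene bodies); lower panel, log2 fold change of Bcl11b+/N440K over Bcl11b+/+ with its 95% interval, filled where edgeR's adjusted p was under 0.05. The strongest interval, 73.2 kb upstream, sits at 0.09, and the filled points at 24.0 kb and 16.0 kb upstream lie on opposite sides of 0.

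Per interval, and so over equal lengths, mean signal over the 6 libraries was highest at Cd3d (46.2 CPM, range 42.0 to 51.9), followed by Rag1 (26.5, 24.6 to 29.3), Cd247 (24.6, 23.7 to 24.9) and Dntt (21.8, 20.4 to 23.0). Cd3g (19.5, 17.0 to 21.5), Rag2 (17.8, 14.6 to 21.9), Cd3e (15.4, 14.5 to 16.8) and Ptcra (14.9, 12.5 to 17.4) came next. Ranges of neighbours in this order overlapped except between Cd3d and Rag1 and between Cd247 and Dntt. The median interval at the 8 genes had 18.3 CPM, against 11.8 CPM over all intervals, and 54 of the 69 were above that level.

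Genes that work with the members were set beside them in 4 lists of 46 genes. The V(D)J recombination and end joining genes, which cut, hold and rejoin DNA ends with the Rag proteins, had 76 intervals near all 13 genes, and none of the 3 tools called any (0 calls). Of these, 46 were positive and 30 negative, with a median log2 fold change of 0.09, and 14 had an unadjusted edgeR p under 0.05 (18.4%, against 12.7% of all intervals). By summed counts 0 of these genes were called and 3 of the 13 had an unadjusted edgeR p under 0.05 (15.7% of all genes), each with a higher mean in Bcl11b+/N440K. Prkdc, the DNA-dependent protein kinase, had 27.2 ± 2.99 CPM in Bcl11b+/N440K and 17.6 ± 2.81 CPM in Bcl11b+/+ (SD, n = 3; edgeR adjusted p = 0.0830). Xrcc6 (Ku70) had 388 ± 32.4 CPM in Bcl11b+/N440K and 330 ± 6.51 CPM in Bcl11b+/+ (SD, n = 3; edgeR adjusted p = 0.101). Paxx, an end joining factor, had 33.1 ± 1.89 CPM in Bcl11b+/N440K and 23.6 ± 3.08 CPM in Bcl11b+/+ (SD, n = 3; edgeR adjusted p = 0.161).

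The interval with the smallest p in that list lies in Xrcc6, with 12.2, 9.76 and 12.5 CPM in Bcl11b+/N440K, against 3.72, 6.18 and 4.72 CPM in Bcl11b+/+ (chr15:82036423-82036623). The groups are apart, and the interval just missed the threshold (log2 fold change 1.20 ± 0.34, SE; edgeR adjusted p = 0.0561); with loess offsets it passed (adjusted p = 0.0476).

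T cell receptor partners and proximal signalling genes had 208 intervals near all 14 genes, with 0 calls by each of the 3 tools. An unadjusted edgeR p under 0.05 was found for 15 (7.21%, against 12.7% of all intervals), and the median log2 fold change was -0.02. The smallest p was at an interval in Cd28, the costimulatory receptor, with 36.5, 30.5 and 38.0 CPM in Bcl11b+/N440K, against 27.9, 21.0 and 23.6 CPM in Bcl11b+/+ (edgeR adjusted p = 0.112). By summed counts 2 of the 14 genes had an unadjusted edgeR p under 0.05 (15.7% of all genes), both with a lower mean in Bcl11b+/N440K. Cd4, a coreceptor, had 88.9 ± 6.01 CPM in Bcl11b+/N440K and 105 ± 12.2 CPM in Bcl11b+/+ (SD, n = 3; edgeR adjusted p = 0.231). Cd6, a surface receptor of T cells, had 265 ± 9.82 CPM in Bcl11b+/N440K and 295 ± 16.2 CPM in Bcl11b+/+ (SD, n = 3; edgeR adjusted p = 0.270). Regulators of the Rag and Cd3 genes had 420 intervals near all 15 genes, of which 223 were negative and 197 positive, with a median log2 fold change of -0.02. An unadjusted edgeR p under 0.05 was found for 41 (9.76%, against 12.7% of all intervals). Over all intervals edgeR called 1.14%, and in this list it called 1 of the 420. That call lies 61.1 kb from Gata3 and was lower in Bcl11b+/N440K (1.33 ± 0.438 CPM, against 6.77 ± 1.40 CPM in Bcl11b+/+, SD, n = 3, edgeR adjusted p = 0.0165). It is a weak interval, with every library below 11.8 CPM, the median over all intervals. The low-count filter works by genotype, so the Bcl11b+/+ libraries alone could carry it past. DESeq2 and limma voom called 0, and the call was lost in 7 of 13 alternative settings. By summed counts Gata3 had 259 ± 2.00 CPM in Bcl11b+/N440K and 299 ± 15.1 CPM in Bcl11b+/+ (SD, n = 3; edgeR adjusted p = 0.108). Of 4 genes of other ITAM chains, 2 (Tyrobp and Cd79b) had intervals, 6 in all, with a median log2 fold change of -0.25. Each of the 3 tools made 0 calls among them, and an unadjusted edgeR p under 0.05 was found for 0. The smallest p there was 0.0620, at an interval 0.7 kb from Tyrobp with 7.54 ± 2.37 CPM in Bcl11b+/N440K and 4.41 ± 1.48 CPM in Bcl11b+/+ (SD, n = 3; edgeR adjusted p = 0.427).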

How the data were processed

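Fresh thymocytes were fixed with formaldehyde, and Bcl11b-bound chromatin was recovered with a rabbit antibody, per the labels' protocols. Bowtie2 2.3.5, SAMtools 1.9, bedtools, fastp 0.20.0, MACS2 and edgeR 3.38.2 with build mm10 appear in the submitters' processing notes, without their roles. The sources used here do not say whether peaks came from single or pooled libraries. The authors deposited raw counts per interval of 201 bp and a table of CPM values. Each library's CPM values were multiplied by its median ratio of raw count to CPM, and 100% came back as whole reads (tolerance 0.01). The count test on those reads called 720 intervals, as with the raw counts. The scale came from the raw counts themselves, so this is no separate check of the calls. 

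Counts of 3 Bcl11b+/N440K and 3 Bcl11b+/+ libraries were filtered (filterByExpr), scaled with TMM (factors 0.98962 to 1.012) and tested over all intervals with edgeR 4.0.16 (glmQLFit, glmQLFTest, two-sided, genotype only). Summed counts per gene were tested likewise. CPM in the text are counts over TMM-scaled totals of the tested intervals, and 95% intervals use the test's standard error. Alternatives were DESeq2 1.42.0, limma 3.58.1 voom, other scalings and filters, a replicate block and leaving out libraries. In simulated counts over 63098 intervals, edgeR recovered 6, 17, 40 and 43 of 50 changed 1.5-, 2-, 3- and 4-fold; over 13602 genes, 33, 39, 48 and 50 of 50, with 5 false calls each. The simulation draws independent counts. Pairs of libraries differed by more than counting noise (chi-square per degree of freedom 1.215 to 1.771), so none was a copy. RefSeq bodies do not tell exons from introns here.

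For each gene the intervals with the highest mean and smallest p, any with an unadjusted p under 0.05 and those at gene ends were named; in each list the called intervals or the one with the smallest p. Members and lists were chosen with earlier results of these data known. Python 3.11.15 and R 4.3.3 were used.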

Additional observations from a re-analysis of the deposited data

How the results depend on the processing

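The count of called intervals at the 8 genes was 0 in each setting tried except 1 without Bcl11b+/N440K replicate 2, so leaving out libraries gave 0 to 1; member genes called by summed counts stayed at 0. Limiting intervals to 20 kb left all 69 in place, and leaving out tied ones removed only the 3 at Rag2. With 0 calls among the 69, the count of called intervals could only be 0 in both. Without tied ones Rag2 had no gene test. Over all intervals the 720 calls became 60 with DESeq2, 318 with limma voom and 301 to 588 without 1 library; over all genes the 457 calls became 160 with DESeq2, 691 with no filter and 295 to 464 without 1 library. With replicate number as a block, 753 intervals and 549 genes were called, with 0 members among either. The libraries share only a number: between genotypes, departures from the group mean had r = -0.004, 0.028 and 0.058 where the number matched and -0.047 to 0.017 where it differed. Signs of small gene differences turned when a library was left out: Cd3e to -0.01, Cd3d to -0.01, Cd3g to 0.005, Dntt to -0.01 and Rag1 to 0.02 and 0.03. The ranges were -0.01 to 0.1 for Cd3e, -0.01 to 0.15 for Cd3d, -0.19 to 0.005 for Cd3g, -0.1 to 0.03 for Rag1 and -0.01 to 0.07 for Dntt, while Rag2 kept -0.5 to -0.32. The strongest Dntt interval was at -0.001 with loess offsets, and the Cd3g start interval ran from -0.16 to 0.002 without 1 library. In the lists, the V(D)J genes had 1 call with loess offsets (Xrcc6), the receptor partners 0 to 1 without 1 library (1 without Bcl11b+/+ replicate 3), and the regulators 0 with DESeq2 and limma voom, 2 under either total-count scaling or the replicate block, and 0 to 2 without 1 library. The Gata3 call was lost with DESeq2, limma voom and loess offsets and without Bcl11b+/N440K replicate 1 or 3 or Bcl11b+/+ replicate 1 or 3; with loess offsets the 1 call lay at Notch1 and without Bcl11b+/N440K replicate 1 at Satb1. The call 16.0 kb upstream of Rag2 was lost in 5 and that at 24.0 kb in 7 of 13 alternative settings, and both kept their sign. Reads recovered from the CPM values repeat the main counts and were left out of these tallies. The cause of these shifts was not tested. Ptcra and the weak intervals are limited by depth, with as few as 3 counts in a library.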
